A study of Mus musculus with 11 samples.

Results

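The genes described here are 34 mouse genes of sugar catabolism and of the response to low oxygen: glucose transporters, the enzymes of glycolysis, lactate dehydrogenase and lactate transporters, the pyruvate dehydrogenase complex with its kinase, the pentose phosphate pathway, and hypoxia-inducible genes. They were listed by name as pathway members, with earlier results of these data known. Of the 34, 30 had a probe on the array, with 54 probes in all, and 25 had at least 1 probe that was above background on 5 or more of the 11 arrays, out of 9139 named genes that met the same rule. Hk2, Gpi1, Eno1 and G6pdx have no probe listed under these names and were not analysed here. Pfkfb3, Eno2, Slc16a1, Pgd and Bnip3 had probes, but none was kept: that of Slc16a1 was above background on 1 array and those of the other genes on 0.

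The samples were T cells expressing T cell receptor beta and CD4, isolated by sorting from inflamed colon lamina propria of mice. Wild-type (WT) and Il23r-/- naive CD4 T cells of strain C57BL/6 had been injected together into Rag1-/- mice, which lack T and B cells of their own but keep their innate immune cells, and both populations were recovered by congenic markers once colitis showed clinically. Both groups therefore share the host genotype, the mixed transfer, the tissue and the inflamed state. They differ in whether the T cells carry Il23r, the receptor gene for the cytokine interleukin 23. They also differ in the congenic markers used to separate them, and these differences cannot be told apart. There were 6 WT arrays and 5 knockout arrays, hybridised one sample each to an Illumina bead array. The sources used here give neither age, sex nor time after transfer, nor the number of mice behind each sample or whether WT and knockout samples came from the same recipients. Differences between samples may thus be technical in part, and the p-values take their error from that spread alone.

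Glycolysis splits glucose into pyruvate, which is either reduced to lactate and exported or passed to the pyruvate dehydrogenase complex for oxidation in mitochondria. The pentose phosphate pathway branches off at glucose 6-phosphate and yields NADPH and ribose for nucleotides. Activated T cells are known to raise glucose uptake and lactate output, and in helper T cells that make interleukin 17 the factor HIF-1 is known to drive many of these genes. When oxygen is scarce HIF-1 binds a short DNA element, the hypoxia response element, whose core is ACGTG or GCGTG.

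That core was common near the start sites of these genes. In RefSeq windows of build GRCm38.p6, from 250 bases before to 50 bases after an annotated start, 33 of the 34 genes matched, with 47 windows between them. At least 1 core, searched on both strands (the other strand reads CACGT for the one form and CACGC for the other), was present in 37 of 47 windows (78.7%), against 43.8% of all 32851 windows in the table. Counted by gene, the share was 29 of 33 (87.9%) against 46.7% of 27025 genes. Base composition was not matched between the members and the other genes, and a match is a description of letters, not of binding. Among the 24 genes with both a measured probe and a window, only Tpi1 and Dlat held no core. The median log2 difference between genotypes was -0.08 for the 22 with a core. Tpi1 was at -0.001 and Dlat at 0.23, too few values to compare with that median. Windows are shown for 5 genes that the results below return to: Ldha, Pgk1 and Pkm, which had negative values in knockout cells, and P4ha1 and Egln3, which had positive ones. They lie at chr7:46845554-46845853 (Ldha, plus strand), chrX:106186850-106187149 (Pgk1, plus strand), chr9:59656977-59657276 (Pkm, plus strand), chr10:59323046-59323345 (P4ha1, plus strand) and chr12:54203825-54204124 (Egln3, minus strand). Each is written 5′ to 3′ on the strand of its gene, with the core matches in capitals. The Ldha and Pkm windows are those with more matches of 2 in the table. The Ldha window holds 7 matches, since the palindrome CACGTG counts on both strands, and those of Pgk1, Pkm, P4ha1 and Egln3 hold 2, 2, 3 and 1.
Ldha: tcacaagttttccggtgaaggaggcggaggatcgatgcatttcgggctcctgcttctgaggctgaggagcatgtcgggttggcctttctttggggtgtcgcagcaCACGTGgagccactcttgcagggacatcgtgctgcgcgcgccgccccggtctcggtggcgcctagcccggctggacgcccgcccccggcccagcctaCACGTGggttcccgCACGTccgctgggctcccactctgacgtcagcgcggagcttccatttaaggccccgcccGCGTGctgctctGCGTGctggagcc
Pgk1: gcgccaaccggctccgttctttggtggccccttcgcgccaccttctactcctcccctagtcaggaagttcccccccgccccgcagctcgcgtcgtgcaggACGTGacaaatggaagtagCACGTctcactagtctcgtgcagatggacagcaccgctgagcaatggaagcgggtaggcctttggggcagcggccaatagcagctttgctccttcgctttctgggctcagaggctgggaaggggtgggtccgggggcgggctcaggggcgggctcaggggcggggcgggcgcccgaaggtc
Pkm: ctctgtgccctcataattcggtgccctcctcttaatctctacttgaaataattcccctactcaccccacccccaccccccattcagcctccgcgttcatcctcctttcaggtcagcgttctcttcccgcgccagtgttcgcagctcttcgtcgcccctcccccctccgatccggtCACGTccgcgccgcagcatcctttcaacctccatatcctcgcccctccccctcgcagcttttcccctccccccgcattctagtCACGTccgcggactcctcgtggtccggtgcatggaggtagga
P4ha1: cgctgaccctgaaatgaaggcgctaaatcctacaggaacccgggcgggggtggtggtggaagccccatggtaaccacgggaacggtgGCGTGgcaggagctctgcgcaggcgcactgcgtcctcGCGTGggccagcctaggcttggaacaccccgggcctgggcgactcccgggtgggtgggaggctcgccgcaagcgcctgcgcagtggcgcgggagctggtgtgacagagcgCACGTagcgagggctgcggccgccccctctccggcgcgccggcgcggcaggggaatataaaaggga
Egln3: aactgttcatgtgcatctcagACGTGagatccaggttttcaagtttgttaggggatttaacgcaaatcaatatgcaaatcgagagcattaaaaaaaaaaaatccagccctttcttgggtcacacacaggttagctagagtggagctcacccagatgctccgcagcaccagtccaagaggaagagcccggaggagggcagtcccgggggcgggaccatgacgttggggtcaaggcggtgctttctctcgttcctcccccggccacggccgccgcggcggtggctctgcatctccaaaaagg

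Values are normalised log2 intensities, on which a difference of 1 is a doubling, and all differences are knockout minus WT. Before normalisation the median probe intensity of an array ran from 107.6 to 176.7, and 17309 to 18440 of 45281 probes were above background. Arrays were alike over all probes (pairwise r from 0.9881 to 0.9951, a description that includes probes near background). Il23r itself was above background on 0 of 11 arrays, so it gives no check of the genotype labels. Of 11 T cell markers, 9 were kept, including Cd4 and the CD3 chains, and Trac and Lck have no probe listed under these names. Their summed normalised intensity was 105000 to 123000 on WT and 111000 to 117000 on knockout arrays. Markers of other cells were present in part. Of 12 epithelial markers 7 were kept: Krt8, Krt18, Cdh1, Car1, Muc2, Lgals4 and Cldn7. Their summed intensity was 1150 to 2030 in WT and 1320 to 1780 in knockout samples. Epcam, Krt19, Krt20, Vil1 and Fabp2 were not kept. Of 5 CD8 and natural killer cell markers 2 were kept, Cd8b1 and Klrb1c (1300 to 1800 and 1290 to 1550). Cd8a and Ncr1 were not kept, and Gzma has no probe listed under this name. Of 10 stromal and endothelial markers 4 were kept: Dcn, Pecam1, Acta2 and Vim, the last of which T cells also express. Their summed intensity was 7000 to 9750 in WT and 6380 to 7380 in knockout samples. The collagen genes, Cdh5, Tagln and Kdr were not kept. B and plasma cell and erythroid markers had 1 kept gene each. Among 18 myeloid markers 13 were kept (Itgam, Itgax, C1qa and Adgre1 were not), with a summed intensity of 4130 to 13600 in WT and 6750 to 9510 in knockout samples.

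None of the 25 genes passed the test between genotypes. With limma and Benjamini-Hochberg adjustment over 18003 probes, 0 of the 38 kept probes of these genes reached an adjusted p under 0.05, while 320 of all tested probes did (1.78%, 1.17% higher and 0.611% lower in knockout cells; 210 and 110 probes, and 199 and 58 when arrays were scaled to equal medians). At an unadjusted p under 0.05 there were 6 of the 38 (15.8%), beside 17.6% of all tested probes, and 5 of the 38 (13.2%) were also negative, beside 8.32% of all tested probes. For 0 of the 38 probes were the WT and knockout arrays free of overlap, beside 3.21% of all. The smallest adjusted p was 0.193. By the brightest kept probe, the 95% interval of all 25 genes lay within a 2-fold change, and that of 19 lay within 0.5 log2 on either side of 0. Over the 25 intervals the bounds ran from -0.59 to 0.64. Of all 38 kept probes 1 passed a 2-fold change with its interval, the dimmer Pgam1 probe (-1.10 to -0.02).

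Most values lay slightly below 0. By the same probes, 18 of 25 (72.0%) had a negative difference, against 48.9% of all named genes, and the median was -0.07, against 0.01. Negative values were mostly those of bright probes, in a split chosen after the values were seen: of 15 genes with a mean log2 intensity of at least 10, 13 were negative, and of the 10 dimmer genes 5 were positive. Of all 3036 named genes at or above that brightness 47.9% were negative. The genes share samples and may vary together, so these shares carry no test. The residual spread was like that of other genes, with a median SD of 0.17 for the members and 0.18 for all named genes. In bulk RNA, fewer cells with a transcript and less of it per cell cannot be told apart. In the same comparison 11 of the 13 kept myeloid markers had positive values (median 0.27) and 13 of 16 kept cell cycle genes negative ones (median -0.33), with 0 called in either list. Summed cell cycle intensity was 24500 to 30700 in WT and 23200 to 30500 in knockout samples. The part of either in the values of the sugar pathway genes was not tested.

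**Figure D1:**
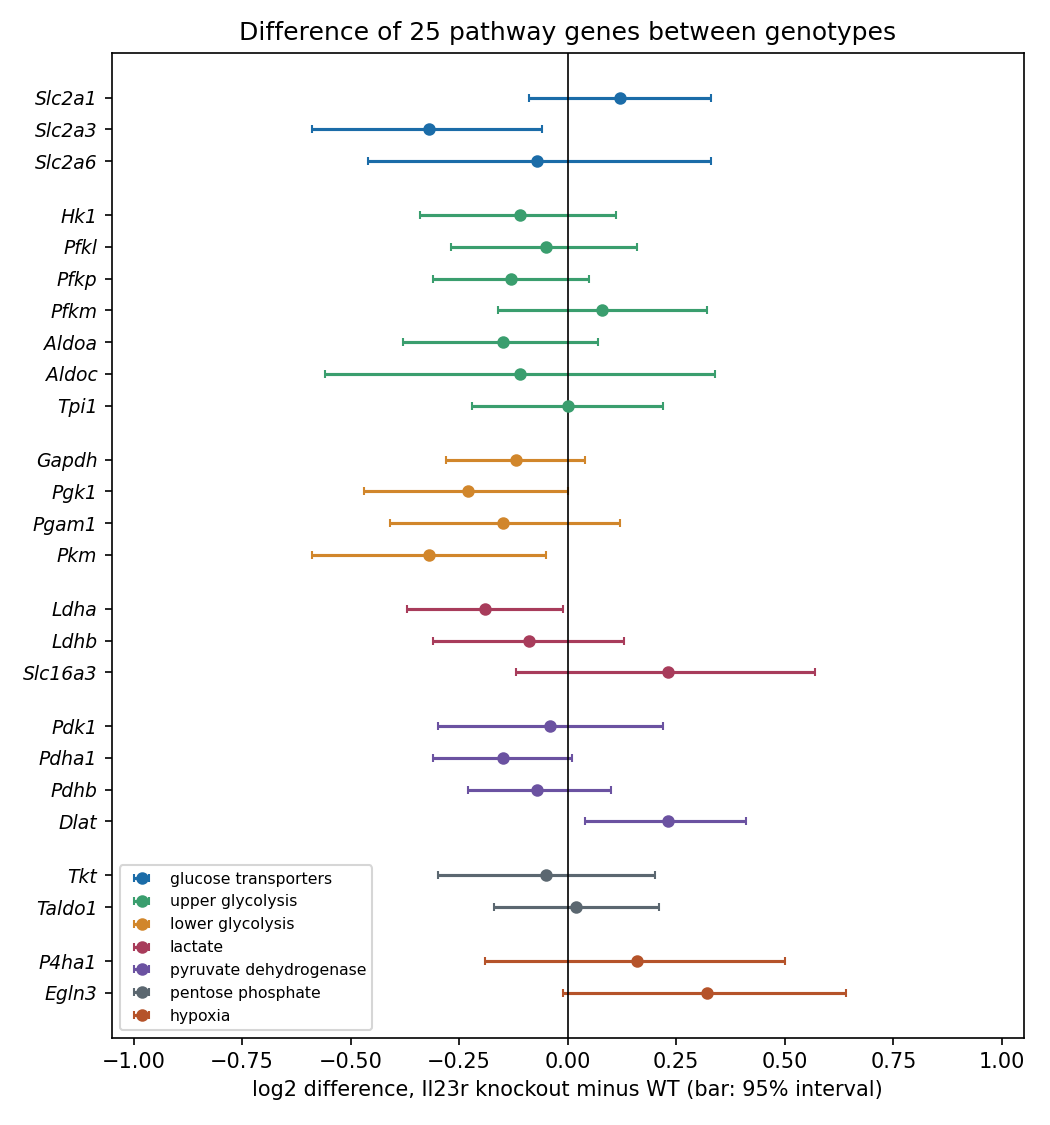
Log2 difference between Il23r knockout and WT cells (horizontal axis, log2 units) for the 25 measured genes, grouped by role; points are the estimates and bars the 95% intervals. Values lie between -0.32 and 0.32, all 4 lower glycolysis genes are left of 0 and both hypoxia genes right of it, and 4 intervals exclude 0 before adjustment for multiple testing.

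Of the 3 glucose transporters, 0 passed the test, and their values had a median of -0.07. Slc2a3, a high-affinity transporter, had the most negative value of the 25 genes together with Pkm. Its WT values ran from 10.99 through a median of 11.34 to 11.70 (mean 11.34 ± 0.26, SD, n = 6), and the knockout arrays read 11.02, 11.21, 11.02, 10.85 and 10.98 (mean 11.02 ± 0.13, SD, n = 5). Of the WT arrays, 4 lay above the highest knockout array, and WT arrays 4 and 6 lay within the knockout range. The difference was -0.32 ± 0.12 (SE, 95% interval -0.59 to -0.06, adjusted p = 0.193), which is -20.1% on the linear scale. Slc2a1, the main glucose transporter of activated T cells, ran the other way. Its WT values were 10.79 to 11.27 with a median of 11.04, and its knockout values were 11.34, 11.26, 11.13, 11.05 and 10.98. The ranges overlap over most of their length, and the difference was 0.12 ± 0.10 (SE, adjusted p = 0.555), or 0.07 without WT array 6 or knockout array 1. Slc2a6, a further member of the family, varied widely among WT arrays (9.49 to 10.69, SD 0.43) and was at -0.07 ± 0.18 (SE, adjusted p = 0.886).

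Upper glycolysis, from hexokinase to triose phosphate isomerase, had 7 of 10 listed genes measured and 0 called, with 6 negative values and a median of -0.11. Hk1, the hexokinase that traps glucose in the cell, was at 8.60 ± 0.15 on WT arrays (SD, n = 6) and 8.48 ± 0.19 on knockout arrays (SD, n = 5), a difference of -0.11 ± 0.11 (SE, adjusted p = 0.601). Its dimmer probe was at -0.23. The 3 phosphofructokinase genes encode the subunits of the committed step. Pfkp was at -0.13 ± 0.08 (SE, adjusted p = 0.441), with 4 WT arrays above the highest knockout array. Pfkl was at -0.05 ± 0.10 and Pfkm at 0.08 ± 0.11 (SE). Aldoa, the main aldolase, ran from 12.59 to 12.98 in WT and from 12.45 to 12.90 in knockout cells, with a difference of -0.15 ± 0.11 (SE, adjusted p = 0.468). Aldoc, its brain-type relative, spread over 6.29 to 7.73 in WT alone, which left a wide interval of -0.56 to 0.34. By the brightest probe the value nearest 0 belonged to Tpi1, the isomerase of the triose phosphates. It was at 12.71 ± 0.15 in WT and 12.71 ± 0.18 in knockout cells (SD), with an interval of -0.22 to 0.22. Its other kept probes were at -0.10 (interval -0.33 to 0.12) and -0.07 (interval -0.29 to 0.14).

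Lower glycolysis, from glyceraldehyde phosphate to pyruvate, had 4 of 6 listed genes measured, all with negative values (median -0.19) and 0 called. Gapdh, which reduces NAD as it oxidises glyceraldehyde phosphate, read 13.98 to 14.22 with a median of 14.10 in WT cells. Its knockout arrays read 14.04, 13.94, 14.03, 13.89 and 14.01, so that 4 WT arrays lay above all of them. The difference was -0.12 ± 0.07 (SE, 95% interval -0.28 to 0.04, adjusted p = 0.423), and -0.22 with the authors' log2 values (adjusted p = 0.113). Gapdh has many near-identical pseudogene copies in the mouse genome, and whether its probe also bound their transcripts was not tested. Pgk1, the first ATP-yielding enzyme of the pathway, ran in WT from 12.88 through 13.08 to 13.52, and its knockout values were 12.90, 12.88, 13.10, 12.82 and 12.88. WT arrays 3 and 5 stood above every knockout array, while the other WT arrays overlapped with them. Its difference was -0.23 ± 0.11 (SE, 95% interval -0.47 to 0.00, adjusted p = 0.293).

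Pkm, the pyruvate kinase gene of most tissues other than liver and red cells, had WT values of 12.49 to 13.03 with a median of 12.71. Its knockout values were 12.64, 12.34, 12.71, 12.11 and 12.33, of which 3 lay below the lowest WT array. The means were 12.75 ± 0.19 (SD, n = 6) and 12.43 ± 0.25 (SD, n = 5), and the difference was -0.32 ± 0.12 (SE, 95% interval -0.59 to -0.05, adjusted p = 0.207). A second, dimmer Pkm probe was at 0.01 ± 0.16 (SE, 95% interval -0.33 to 0.36), so the negative value was not shared by both probes. Pgam1, the phosphoglycerate mutase, was at -0.15 ± 0.12 on its brightest probe (SE, adjusted p = 0.556) and at -0.56 ± 0.25 on its dimmer probe (SE, adjusted p = 0.269). That gap of 0.41 was the largest between a member's brightest probe and another of its probes. Without WT array 3 the brightest probe was at -0.07.

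**Figure D2:**
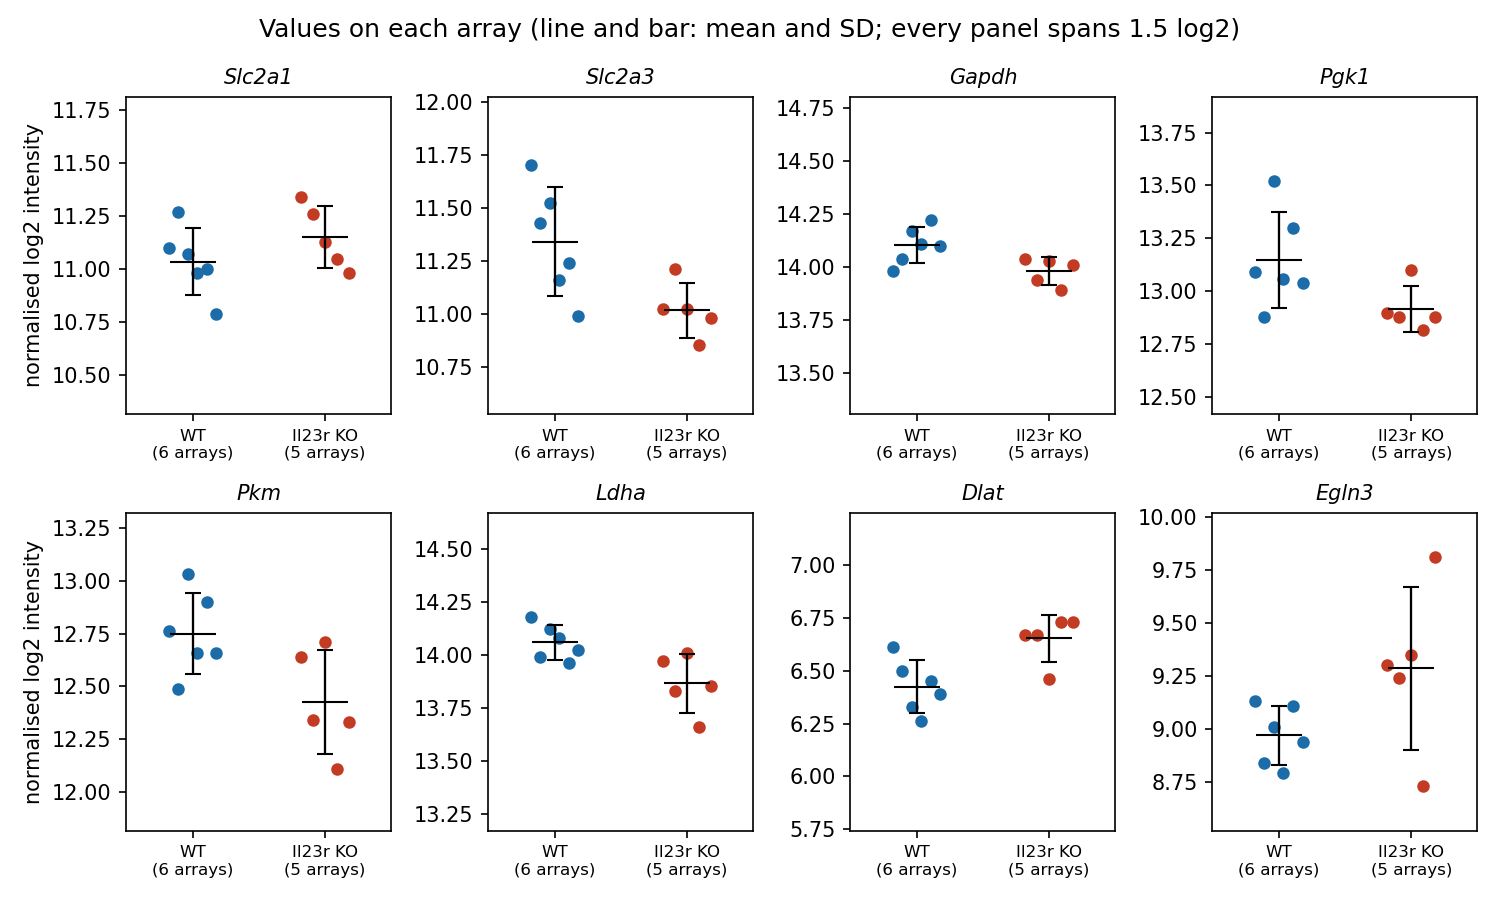
Normalised log2 intensity (vertical axes, each spanning 1.5 log2) of Slc2a1, Slc2a3, Gapdh, Pgk1, Pkm, Ldha, Dlat and Egln3 on the 6 WT and 5 knockout arrays; points are arrays, lines and bars the mean and SD. In every panel the genotypes overlap: Slc2a3, Gapdh and Ldha each have 4 WT arrays above the highest knockout array, and Dlat and Egln3 each have 4 knockout arrays above the highest WT array.

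The lactate genes had 3 of 4 members measured, 0 called and a median of -0.09. Ldha, the lactate dehydrogenase subunit that favours the making of lactate, had WT values from 13.96 through 14.05 to 14.18 and knockout values of 13.97, 13.83, 14.01, 13.66 and 13.85. Of the knockout arrays 3 lay below the lowest WT array, and 4 WT arrays lay above the highest knockout array. The difference was -0.19 ± 0.08 (SE, 95% interval -0.37 to -0.01), and its adjusted p was 0.247, the range over all settings tried being 0.0659 to 0.524. With the authors' log2 values it was at -0.29. Ldhb, the subunit that favours the making of pyruvate, was at -0.09 ± 0.10 (SE, adjusted p = 0.699). Slc16a3, the transporter that exports lactate from glycolytic cells, was near background. Its probe exceeded background on 2 WT and 4 knockout arrays, and its difference was 0.23 ± 0.16 (SE, adjusted p = 0.476). That value was 0.09 with no background correction, 0.07 with the authors' log2 values and 0.12 without knockout array 5. A dimmer Slc16a3 probe that was not kept lay the other way, above background on 3 WT arrays and 0 knockout arrays (5.35 to 5.95 in WT and 5.02 to 5.51 in knockout cells).

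Pyruvate dehydrogenase genes differed in sign within the one complex, with 4 of 4 measured and 0 called. Pdha1, the catalytic alpha subunit, was at 11.38 ± 0.08 on WT arrays (SD, n = 6) and 11.23 ± 0.09 on knockout arrays (SD, n = 5), a difference of -0.15 ± 0.08 (SE, 95% interval -0.31 to 0.01, adjusted p = 0.328). Dlat, the core subunit that carries the acetyl group, went the other way: its WT values ran from 6.26 through 6.42 to 6.61, and its knockout values were 6.67, 6.67, 6.46, 6.73 and 6.73. Knockout array 3 lay within the WT range and the other 4 above it. The difference was 0.23 ± 0.09 (SE, 95% interval 0.04 to 0.41, adjusted p = 0.195), and 0.11 with no background correction and 0.09 with the authors' log2 values. Pdhb, the beta subunit, read differently by probe: the brightest was at -0.07 ± 0.08, another at 0.22 ± 0.11 and the dimmest at -0.28 ± 0.13 (SE). The last 2 lay 0.50 apart, the widest gap between any probes of one member. Pdk1, the kinase that switches the complex off, was at -0.04 ± 0.12 on its brightest probe and at 0.36 ± 0.24 on a dimmer one (SE), which exceeded background on 3 WT and 4 knockout arrays. Across all members, 11 had several kept probes, and 4 of the 13 probes other than the brightest had the opposite sign, those of Pkm, Pdk1, Pdhb and Tkt.

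The pentose phosphate pathway was represented by its non-oxidative arm, with 2 of 4 genes measured and 0 called. Tkt, transketolase, was at 11.61 ± 0.17 on WT arrays (SD, n = 6) and 11.56 ± 0.21 on knockout arrays (SD, n = 5), a difference of -0.05 ± 0.11 (SE, 95% interval -0.30 to 0.20). Its dimmer probe was at 0.07. Taldo1, transaldolase, was at 0.02 ± 0.09 (SE, 95% interval -0.17 to 0.21), and its WT range of 11.84 to 12.16 and knockout range of 11.93 to 12.20 nearly coincided. G6pdx and Pgd, the members of the oxidative arm, whose enzymes make NADPH, gave no value. Pgls, a gene of that arm among the further genes, was at 0.04 ± 0.13 on its brightest probe (SE, 95% interval -0.24 to 0.31). Its dimmer probe was at -0.02.

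Both measured hypoxia genes had positive values, on all 4 of their kept probes, and 0 passed the test. Egln3, an oxygen-sensing prolyl hydroxylase that HIF-1 is known to induce, ran from 8.79 through 8.98 to 9.13 in WT. Its knockout values were 9.30, 9.24, 9.35, 8.73 and 9.81, so 4 lay above and 1 below every WT array. The difference was 0.32 ± 0.15 (SE, 95% interval -0.01 to 0.64, adjusted p = 0.292), and its second probe was at 0.25 ± 0.16 (SE). P4ha1, a collagen prolyl hydroxylase subunit also induced in low oxygen, was at 0.16 ± 0.16 (SE, adjusted p = 0.65), with a second probe at 0.34 ± 0.17 (SE, adjusted p = 0.309). Knockout array 5 deviated by 0.52 in Egln3 and 0.42 in P4ha1, and without it their values were 0.19 and 0.05. P4ha1 was at 0.07 without WT array 1 and at 0.26 without knockout array 1. The windows of Ldha, Pgk1 and Pkm, shown for their negative values, hold the same core. So did those of 22 of the 24 measured genes with a window, so a shared core was likely for any genes shown. The part of the core in the sign was not tested. Bnip3, a mitophagy receptor and the third gene of this group, was above background on 0 arrays.

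Arrays of one genotype differed from each other in several of these genes at once. Taken as deviations from the mean of their genotype, which sum to 0 within it, 19 of 25 genes were above that mean on WT array 3 and 18 on WT array 5, against 7 on WT array 2. Among knockout arrays the count was 17 on array 5, 15 on array 3, 7 on array 2 and 5 on array 4. Of all 9139 named genes, 48.8%, 44.2% and 57.3% were above the mean on WT arrays 3, 5 and 2, and 46.5%, 46.4%, 55.2% and 43.6% on knockout arrays 5, 3, 2 and 4. All 4 lower glycolysis genes were above the mean on WT arrays 3 and 5, and all 4 were below it on WT arrays 2 and 6 and knockout arrays 2 and 4. For upper glycolysis 7 of 7 genes were above it on WT array 3 and 0 of 7 on knockout array 4, which held the lowest knockout value for 13 of the 25 genes. Pgk1, Pgam1 and Pkm had deviations of 0.37, 0.41 and 0.28 on WT array 3 and of -0.27, -0.19 and -0.26 on WT array 2. Slc2a3 and Slc2a6 ran against each other, at 0.36 and -0.72 on WT array 1 and at -0.35 and 0.30 on WT array 6. Members above the mean numbered 10, 7, 19, 12, 18 and 8 of 25 on WT arrays 1 to 6. On the same arrays the median deviation of myeloid markers was 0.03, 0.79, 0.57, -0.84, -0.0 and -0.45. That of cell cycle genes was -0.06, -0.01, 0.15, 0.17, 0.07 and -0.28. On knockout arrays 1 to 5 the members above the mean numbered 11, 7, 15, 5 and 17. Myeloid markers deviated there by 0.17, -0.0, -0.14, -0.17 and 0.1, and cell cycle genes by 0.31, 0.14, -0.26, -0.14 and -0.09. The part of these markers in the deviations was not tested.

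**Figure D3:**
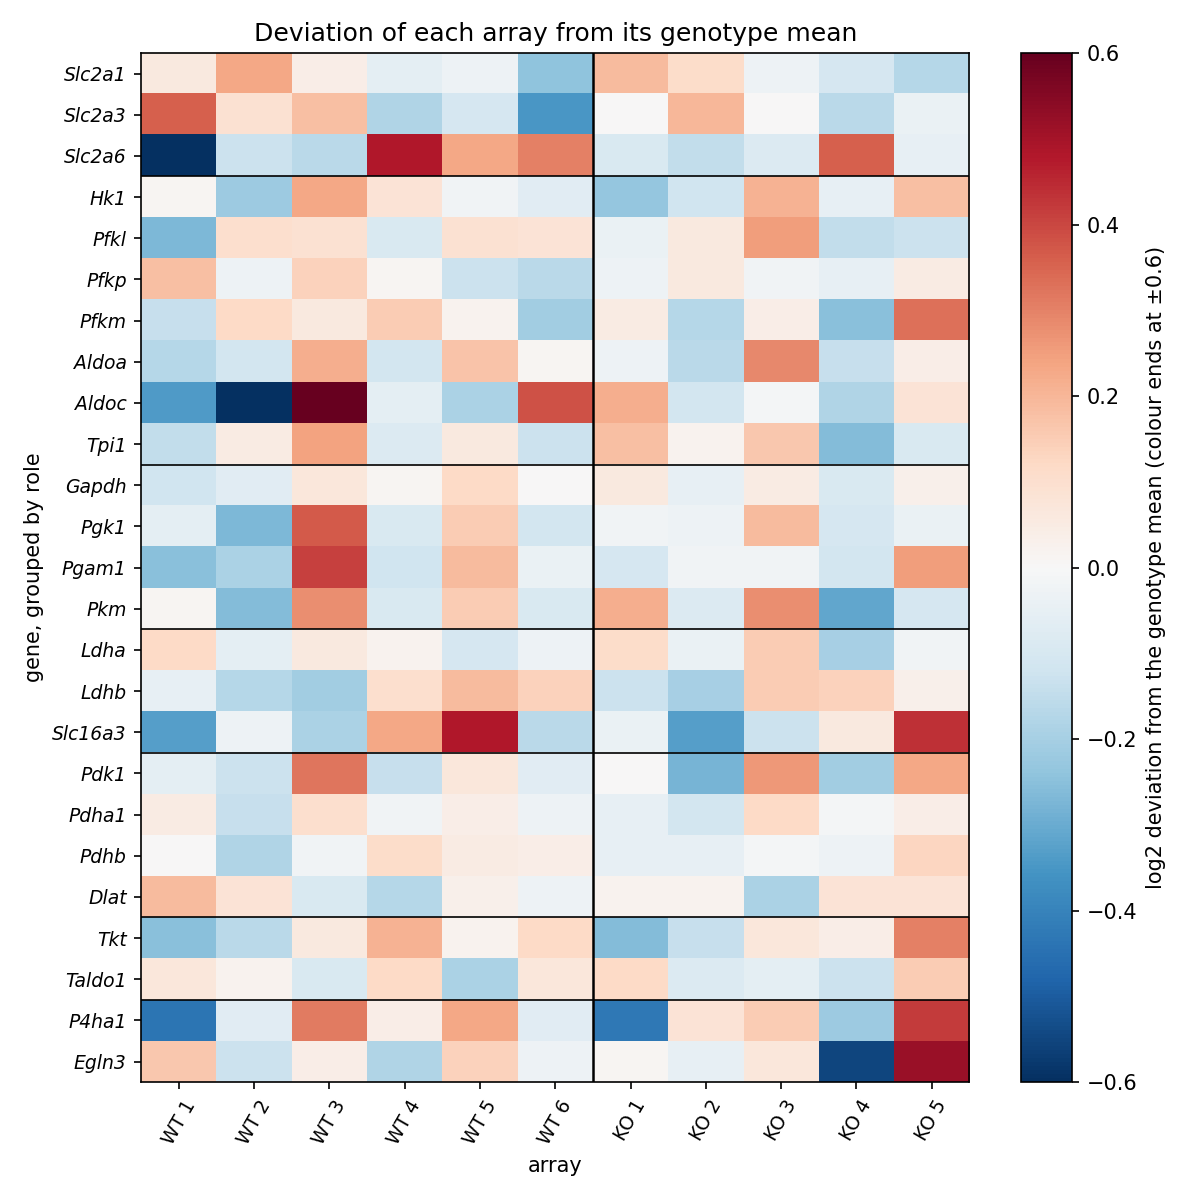
Deviation of each array (columns, 6 WT and 5 knockout) from the mean of its genotype in log2 units (colour, with ends at 0.6 on either side) for the 25 genes (rows, grouped by role). WT array 3 is red in most rows (19 of 25 above the mean) and knockout array 4 blue in most (5 of 25 above it); the 4 lower glycolysis rows change colour together on WT arrays 2, 3 and 5.

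Further genes of the same pathways, 103 in 8 lists, placed these values in context, and 62 of them were measured with 108 probes. Of the 62, Txnip passed and 61 did not. Its 2 probes are 1.85% of the 108, near the 1.78% of all tested probes that passed, and the lists were chosen with earlier results of these data known. Txnip, an arrestin-related protein known to lower glucose uptake by removing glucose transporters from the cell surface, was higher in knockout cells on both probes. On its brightest probe the WT values ran from 10.52 to 11.03 (mean 10.75 ± 0.23, SD, n = 6) and the knockout values were 11.26, 11.44, 11.60, 11.00 and 11.49, with knockout array 4 inside the WT range. That probe rose by 0.61 ± 0.13 (SE, adjusted p = 0.032), and the call was lost in 7 of 11 fits made without 1 of the arrays (largest adjusted p 0.0896) and under 3 of 9 further settings (largest adjusted p 0.0627). On the dimmer probe the WT arrays read 9.60 to 9.82 and the knockout arrays 10.21 to 10.49 without overlap. It rose by 0.67 ± 0.08 (SE, 95% interval 0.49 to 0.84, adjusted p = 0.00078), and kept the call in all 20 of those fits (adjusted p up to 0.0147).

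The remaining lists had 0 called genes each, and for each the 2 genes with the smallest p are given. The list for transport of glucose and of monocarboxylates, a class of acids that includes lactate, had 4 measured genes (median -0.00). Slc2a9, which carries urate and hexoses, was at -0.33 ± 0.10 (SE, adjusted p = 0.114). It passed only without knockout array 2 (-0.42, adjusted p = 0.0227), while Slc16a6 was at 0.22. Of 7 further glycolytic isozymes and regulators (median 0.21), Bpgm, the bisphosphoglycerate mutase, was at 0.33 ± 0.13 and Gpd2, the mitochondrial glycerol phosphate dehydrogenase, at 0.21 ± 0.10 (SE) on its brighter and -0.02 on its dimmer probe. Of 4 genes for pyruvate entry into mitochondria (median -0.18), the phosphatase gene Pdp2, whose product switches the pyruvate dehydrogenase complex on, was at 0.31 ± 0.09 (SE, adjusted p = 0.118) but at -0.07 and -0.19 on its other probes, and the kinase gene Pdk3 was at -0.19. Among 7 further pentose phosphate genes (median 0.04), the phosphoribosyl pyrophosphate synthetase gene Prps1 was at 0.15 ± 0.07 (SE, adjusted p = 0.273) with all knockout arrays (12.40 to 12.51) above all WT arrays (12.22 to 12.38), and H6pd was at 0.24. Such a lack of overlap was found for 3.21% of all tested probes. The 10 genes of glycogen and hexose side routes had a median of -0.00, with the glycogen phosphorylase gene Pygb at -0.14 and the fructokinase gene Khk at -0.07 (0.26 on a dimmer probe).

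The oxygen-sensing machinery, with 8 of 8 genes measured, had a median of -0.08. Egln2, a prolyl hydroxylase of the same family as Egln3, was at -0.34 ± 0.10 (SE, adjusted p = 0.113). Its knockout arrays (7.06 to 7.60) lay below every WT array (7.62 to 7.95) without passing the test, and 3.21% of all tested probes were likewise free of overlap. Arnt, the partner subunit of HIF-1, was at -0.09 on its brightest probe, at -0.36 on the probe with the smallest p, and at -0.07, -0.00, 0.01 and 0.15 on its other probes. Of 13 measured genes known to be hypoxia-inducible (median -0.06), Vegfa, an angiogenic growth factor gene, was at 0.58 ± 0.23 (SE, 95% interval 0.09 to 1.07, adjusted p = 0.205). Its probe exceeded background on 2 WT and 5 knockout arrays, and its WT values spread from 4.95 to 6.19. Mxi1, an antagonist of Myc, was at -0.34 ± 0.18 (SE, adjusted p = 0.35). Among 9 upstream regulators (median 0.06, Txnip included), Rptor, a subunit of the growth-controlling kinase complex mTORC1, was at 0.06 on its brightest probe and at -0.37, -0.21 and 0.28 on others, without passing.

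**Figure D4:**
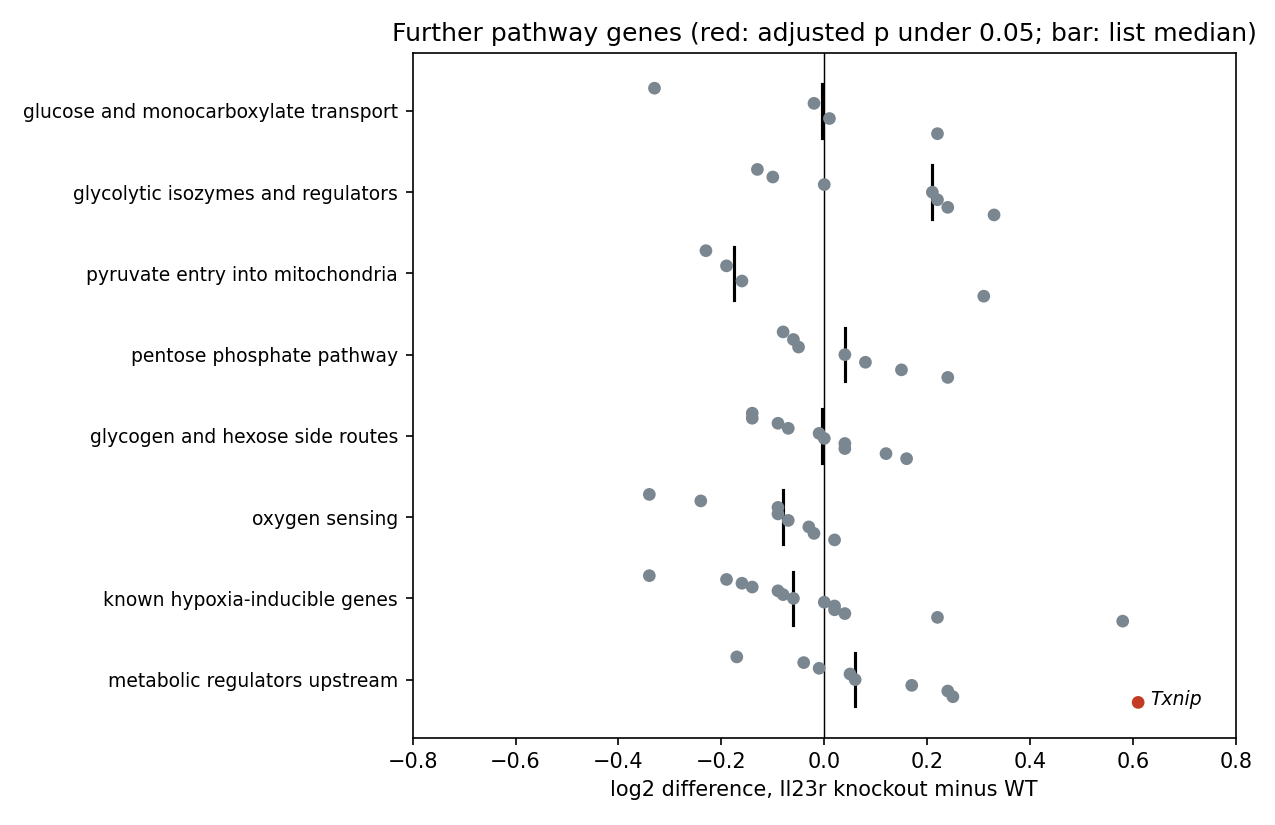
Log2 difference between Il23r knockout and WT cells (horizontal axis, log2 units) for 62 further genes in 8 lists (rows); points are the brightest probes, black bars the list medians, and red marks an adjusted p under 0.05. Txnip (0.61) is the single red point, and Vegfa (0.58) lies nearly as far out without passing the test.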

How the data were processed

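Amplified, biotin-labelled RNA was hybridised to 1-colour bead arrays, per the labels. The authors deposited linear probe intensity. The submitters' processing notes name GenomeStudio 1.6.0, and the sources used here give no other step. The detection p-value column deposited beside it rose with intensity (Spearman correlation at least 0.984) and was read as 1 minus p. The authors also deposited log2 values, found by comparison to be log2 intensity from which the array's 75th percentile was subtracted (column medians from -1.11 to -0.86). Matching all 11 values per row (largest difference 0.000339) joined the tables. The platform annotation gave 34885 probes 1 gene symbol, 18 several (left unnamed) and listed none for 10378; 10 symbols were updated through RefSeq tables.

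Intensities were corrected and normalised with neqc (normexp, offset 16, quantile) in limma 3.58.1 under R 4.3.3; the offset shrinks differences of dim probes. Probes with detection p under 0.05 on at least 5 of 11 arrays were kept. Genotypes were compared with lmFit and eBayes, two-sided, genotype as the single term, Benjamini-Hochberg adjustment over 18003 probes, a call being an adjusted p under 0.05. The code was tested on simulated data. The brightest kept probe stood for a gene. Named were all measured members, and other probes where their sign differed or as a range. Of the further genes, those called, the 2 with the smallest p per list and Pgls were named. Members and lists were chosen with earlier results of these data known. The labels give no basis for pairing by replicate number. Slide numbers were not at hand, so a slide effect cannot be told apart from genotype. The number of arrays limits the precision.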

Additional observations from a re-analysis of the deposited data

Results flagged for a closer look

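In 5 of 50 groups of arrays, formed by 25 genes and both genotypes, 1 array stood far from the others of its genotype relative to the range of the group. Chance marks about 1 in 20 such groups, or 2.5 of 50. All 5 were in the knockout group. Slc2a6, a glucose transporter gene, was high on knockout array 4 (10.50, the others 9.99 to 10.09). Pgk1, the phosphoglycerate kinase gene, was high on knockout array 3 (13.10, the others 12.82 to 12.90). On knockout array 5, Pgam1 was high (9.64, the others 9.28 to 9.37), as was Pdhb (10.50, the others 10.33 to 10.37). Dlat was low on knockout array 3 (6.46, the others 6.67 to 6.73).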

How the results depend on the processing

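No member passed the test in any of the fits tried, 11 that left out 1 array and 9 with another setting. The smallest adjusted p was 0.0659, for Ldha with the authors' log2 values. The remaining settings were no new fits. They were a recount of the main fit at an adjusted p under 0.1 and the members' median over the mean of all kept probes per gene. The members' median stayed between -0.11 and -0.02. By over 1.5 times, 20 of the 25 differences moved in at least 1 setting; those of Slc2a3, Pkm, Pgk1, Pdha1 and Pfkp did not. Of 499 gene values under an alternative, 479 kept their sign and 20 did not. The 20 were in 7 genes, whose main values lay between -0.11 (Aldoc) and 0.08 (Pfkm). Of the 20, 15 came with 1 array left out and 5 otherwise. The 5 were Pdk1 at 0.02 with equal medians and Taldo1 at -0.02 with the authors' values and -0.0013 with array weights. They also included Tkt and Slc2a6 at 0.01 each with array brightness as a term. With 1 array left out the values of these genes ran from -0.05 to 0.06 for Tpi1, from -0.11 to 0.03 for Pdk1, from -0.24 to 0.05 for Aldoc, from -0.21 to 0.03 for Slc2a6, from -0.02 to 0.05 for Taldo1, from -0.13 to 0.02 for Tkt and from -0.01 to 0.14 for Pfkm; the cause was not tested.

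The 320 calls over all probes became 210 with no detection filter, where more probes were tested, 512 with array brightness as a term and 649 at an adjusted p under 0.1. Leaving out 1 array gave 159 to 513: 513 without WT array 2, 162 and 159 without WT arrays 3 and 5, and 187, 178 and 181 without knockout arrays 2, 3 and 4. The 2 further probes called, both of Txnip, became 1, the dimmer probe, with equal medians (brightest probe at adjusted p = 0.0579), no detection filter (0.0627) and replicates 1 to 5 alone (0.0615, the same fit as that without WT array 6 and counted once), and 1 to 2 with 1 array left out. The brightest probe missed the threshold without WT array 3, 4, 5 or 6 or knockout array 2, 3 or 5. With the replicate number as a block, 264 probes were called, 0 of the members and 1 of the further genes (Txnip, brightest probe at 0.0544). Same-numbered residuals correlated at 0.243, 0.174, -0.013, 0.079 and 0.257. WT samples 1, 4 and 5 correlated best with their own number. WT samples 2 and 3 correlated best with knockout sample 1, at 0.393 and 0.058, the former above every same-numbered value. Whether shared numbers mark a shared recipient is not settled by the labels. Scaling moved the median of all kept probes from -0.007 to 0.036 with equal medians and -0.021 with the authors' values. Dim probes lay near background on some arrays, which limits their differences. Among them were those of Slc16a3, Vegfa and Bpgm. Dimmer probes of Pdk1, Egln3, Rptor and Khk were also among them.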
